A study of Mus musculus with 20 samples.

Results

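The matrix metalloproteases (Mmp genes), the related ADAMTS proteases (Adamts genes) and their tissue inhibitors (Timp genes) were followed through bladders and metastases of a mouse bladder cancer model. The members were taken by name, as every row of the value table with 1 platform symbol that reads Mmp, Timp or Adamts followed by a number, with 1 row per gene. This gave 44 of 30142 genes, of which 22 were Mmp, 18 Adamts and 4 Timp genes. Each of the 44 had a single row. Mmp15 and Adamts2 were not analysed here.

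The samples were 20 arrays of FVB/N mice. All groups, the control bladders included, carried the same germline genotype, which includes floxed Rb alleles and p107-/- together with further floxed tumor suppressor loci. The 5 groups were control bladder (n = 5, no virus named in the design), bladder tumor (n = 7, Cre adenovirus given into the bladder), treated bladder (n = 3, the same virus followed by drugs), metastasis (n = 4) and treated metastasis (n = 1). Cre recombinase deletes floxed genes only in the cells the virus enters, so the stroma of a tumor can keep the floxed alleles. The drugs were CM272, which blocks both G9a, a histone methyltransferase, and DNA methyltransferases, at 5 mg/kg daily for 30 days, and cisplatin at 6 mg/kg weekly. The sources used here do not give ages, the organ of each metastasis or a link between numbered samples and animals. The p-values therefore measure the spread between samples, which may be technical in part.

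MMPs are zinc proteases that cut collagens, elastin, laminins and other matrix proteins, and most are secreted as inactive proenzymes that another protease must open. ADAMTS proteases are secreted enzymes that cleave proteoglycans such as versican and aggrecan, process procollagens or trim other secreted proteins. TIMPs bind the active site of these enzymes and block it, and TIMP2 also helps the membrane-bound MMP14 to activate pro-MMP2. In tumors much of this protease supply is known to come from fibroblasts, macrophages and neutrophils as well as from the cancer cells. In bulk samples fewer cells of a type and less RNA per cell cannot be told apart.

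Among protein-coding genes, 10 Mmp genes neighbour each other on mouse chromosome 9, in the order Mmp13, Mmp12, Mmp1b, Mmp3, Mmp1a, Mmp10, Mmp8, Mmp27, Mmp20 and Mmp7. Their promoters are shown because several of these neighbours, among them Mmp3, Mmp10, Mmp7, Mmp12 and Mmp13, vary widely among the arrays. The RefSeq promoter table (build GRCm38.p6) holds the 300 bases from 250 before to 50 after a gene's start. Entries of 30 of the 44 members were used, and Adamts19 was left out of this search. The sequences were searched for TGANTCA, the motif of the AP-1 transcription factors, which reads the same on both strands. It was present in 8 of the 10 neighbours (80.0%) and in 0 of the other 20 members whose entries were used. Of all entries, 7.81% of 32851 promoters and 8.97% of 27025 genes have the motif. Mmp8 and Mmp27 do not have these letters in the window, and for Mmp12 and Mmp7 they lie in 1 of the 2 promoters listed. The motif is in capitals in the following stretches, with 15 bases on either side, each read along the gene's own strand.
Mmp13: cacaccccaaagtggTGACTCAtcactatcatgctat
Mmp12: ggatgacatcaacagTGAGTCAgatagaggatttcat
Mmp1b: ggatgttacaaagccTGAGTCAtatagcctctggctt
Mmp3: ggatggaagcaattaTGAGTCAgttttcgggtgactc
Mmp1a: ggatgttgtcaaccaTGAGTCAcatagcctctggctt
Mmp10: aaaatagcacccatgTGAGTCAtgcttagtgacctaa
Mmp20: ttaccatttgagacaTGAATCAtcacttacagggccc
Mmp7: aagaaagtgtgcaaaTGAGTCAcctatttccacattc
The stretches lie at Mmp13 chr9:7272464-7272500 (plus strand), Mmp12 chr9:7347315-7347351 (plus strand), Mmp1b chr9:7388098-7388134 (minus strand), Mmp3 chr9:7445761-7445797 (plus strand), Mmp1a chr9:7464053-7464089 (plus strand), Mmp10 chr9:7502264-7502300 (plus strand), Mmp20 chr9:7628121-7628157 (plus strand) and Mmp7 chr9:7692012-7692048 (plus strand). The first motif base was 46 bases before the start for Mmp3, 44 for Mmp12, 35 for Mmp13, 63 for Mmp10 and for Mmp7, 73 for Mmp1a, 93 for Mmp1b and 95 for Mmp20. The letters were TGAGTCA in 6 of the 8, with TGACTCA in Mmp13 and TGAATCA in Mmp20. A match of letters is a description and not a measured binding site.

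The whole promoters of Mmp3 and Timp1 are given because these genes have the widest ranges of their classes and peak in the same array. Mmp3 (stromelysin 1) is at chr9:7445572-7445871 and Timp1 at chrX:20869916-20870215, both on the plus strand. The exact letters TGANTCA, in capitals, are in the first and not in the second. Near matches, such as the tgagtaa in the Timp1 promoter, were not counted by the search.
Mmp3: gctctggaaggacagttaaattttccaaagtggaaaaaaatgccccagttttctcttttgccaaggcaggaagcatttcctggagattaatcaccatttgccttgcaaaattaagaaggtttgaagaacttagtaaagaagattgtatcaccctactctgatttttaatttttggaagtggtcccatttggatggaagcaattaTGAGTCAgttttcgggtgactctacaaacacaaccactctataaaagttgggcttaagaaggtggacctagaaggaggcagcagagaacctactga
Timp1: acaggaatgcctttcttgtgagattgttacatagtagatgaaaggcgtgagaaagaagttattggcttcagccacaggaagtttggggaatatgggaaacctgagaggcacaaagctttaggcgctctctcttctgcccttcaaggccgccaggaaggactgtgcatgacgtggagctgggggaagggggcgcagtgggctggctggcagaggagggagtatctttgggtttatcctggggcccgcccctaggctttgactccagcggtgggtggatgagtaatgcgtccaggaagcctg

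Some arrays of 3 groups stood apart from the rest. In 8 near-mean arrays (control bladder 4, 5 and 6, tumor 3, 4 and 5 of the bladder, metastasis 3 and 4) the deviations of all genes from their means correlated with no other array above r = 0.14. The same figure was 0.33 to 0.61 in the other 12. Array medians ran from 5.07 to 5.42. Differences are given over all arrays of the fit, and also without the near-mean arrays where this moves them by over 1.5 times. Without them the controls are control bladder 1 and 2, which read Xist at 10.8 and 10.9 against at most 6.44 elsewhere. A difference from control then cannot be told apart from sex. Control bladder 1 and 2 are also among the 5 controls with all arrays, so sex can enter those differences from control in part. Urothelial markers (9 genes) had mean values of 6.88 to 8.55 in control bladder, 5.37 to 9.79 in bladder tumor, 6.86 to 7.99 in treated bladder, 5.46 to 6.93 in metastasis and 5.62 in the treated metastasis.

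Values are log2 RMA values, where a difference of 1 is 2-fold, and levels of different genes were not compared. Over the 20 arrays 28 of 44 members (63.6%, against 51.4% of all genes) had a range under 1. A range above 2 was found for 5 members, Mmp3, Mmp7, Mmp9, Mmp14 and Timp1, which is 11.4% of members against 8.93% of all genes. The high values clustered in a few arrays. Bladder tumor 6 held the highest value of 8 members (18.2%, against 9.63% of all genes), namely Adamts1, Adamts4, Adamts12, Mmp3, Mmp8, Mmp10, Mmp14 and Timp1. Bladder tumor 1 held that of 7 (15.9% against 15.2%), bladder tumor 2 that of 6 (13.6% against 4.05%) and metastasis 1 that of 6 (13.6% against 8.64%). Bladder tumor 6 was also the lowest array of 8 members, against 8.93% of all genes.

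**Figure D1:**
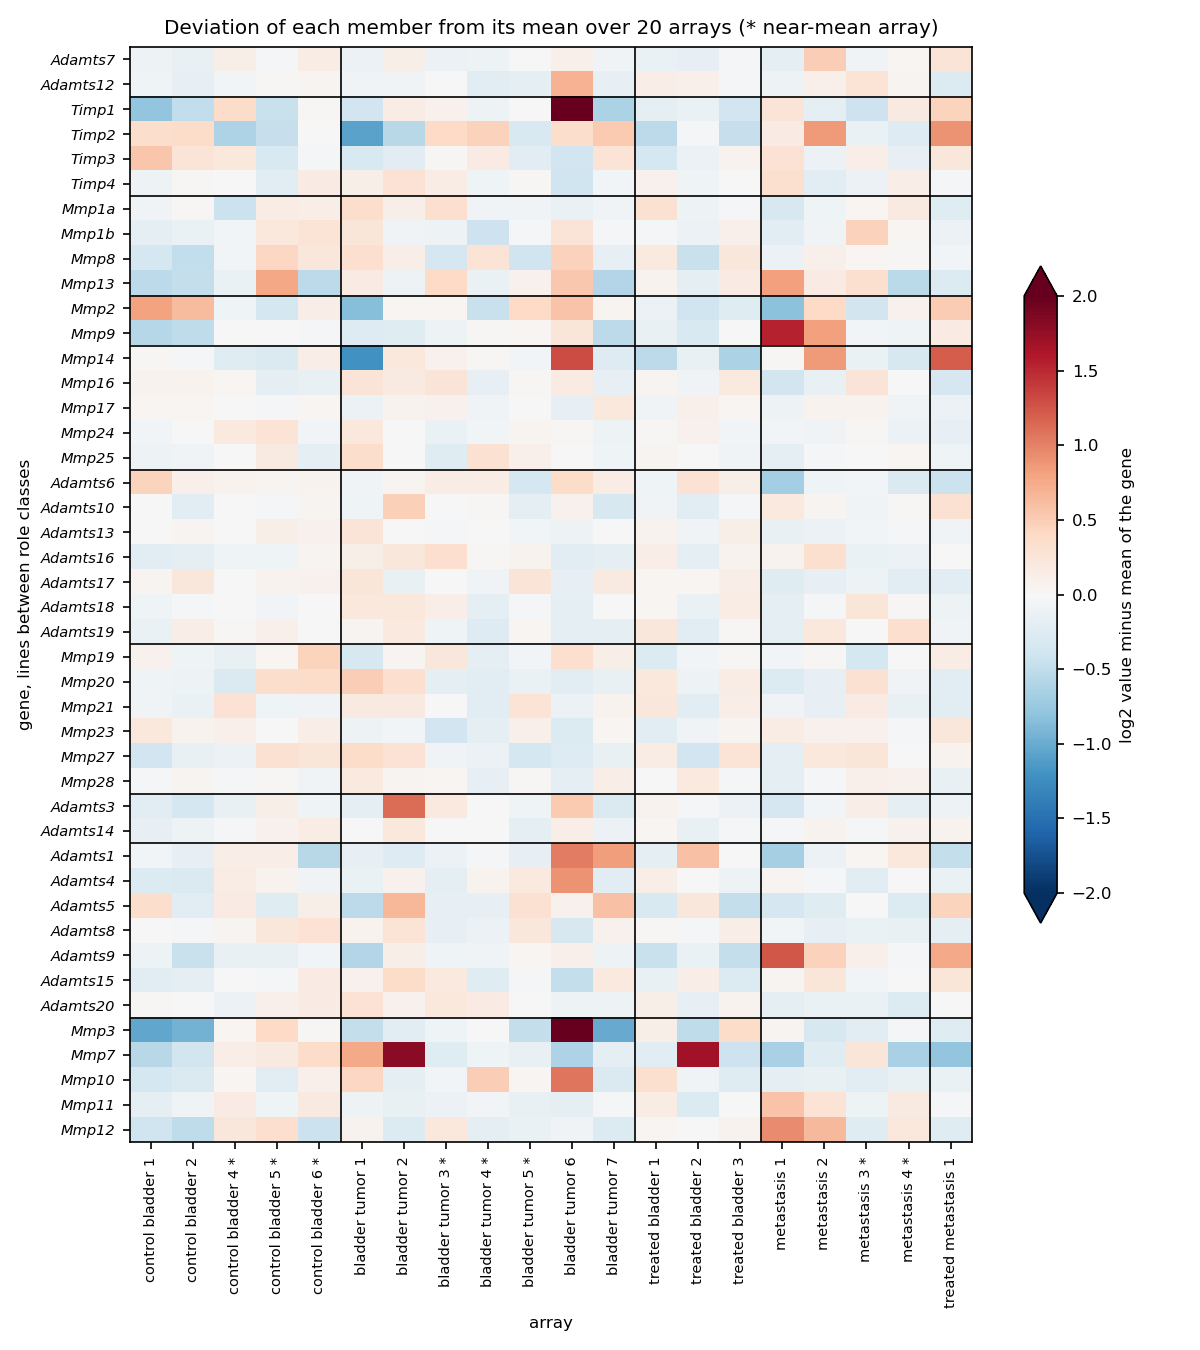
Each cell is the log2 value of 1 member (row, grouped by role class) in 1 array (column) minus the mean of that gene over 20 arrays, with red above and blue below and colours capped at 2 either way. Near-mean arrays are starred and mostly pale, with exceptions such as Mmp13 in control bladder 5, at 5.67 against a mean of 4.90. Mmp3 and Timp1 stand out in bladder tumor 6, Mmp9, Mmp12 and Adamts9 in metastasis 1, and Mmp7 in bladder tumor 2 and treated bladder 2.

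No member was called in any comparison at a Benjamini-Hochberg adjusted p under 0.05 in limma. Over all genes 0.0% were called in each of the 5 comparisons, so that the absence of calls is shared by the whole table. At an unadjusted limma p under 0.05 the members numbered 1 of 44 in tumor minus control (2.27%, against 4.28% of all genes) and 0 in treated bladder minus tumor (against 0.488%). They numbered 0 in treated bladder minus control (against 0.763%), 7 in metastasis minus tumor (15.9%, against 6.0%) and 6 in metastasis minus control (13.6%, against 7.12%). Without metastasis 1 the last 2 counts were 1 (2.27%, against 3.94% of all genes) and 2 (4.55%, against 4.93%). Without metastasis 2 they were 6 (13.6%, against 5.08% of all genes) and 4 (9.09%, against 5.89%). Over the other arrays left out in turn the first was 7 to 8 (15.9% to 18.2%, against 4.81% to 9.77% of all genes). The second was 5 to 7 (11.4% to 15.9%, against 5.15% to 8.01%). The 7 were Mmp9, Mmp11, Mmp12, Adamts6, Adamts9, Adamts17 and Adamts20. The 6 were the same without Mmp11. The comparisons with tumor and control share the metastasis arrays, so their lists do not stand for separate evidence. The other settings tried, among them array weights, a replicate block and leaving out the near-mean arrays, also called 0 members.

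The collagenases open fibrillar collagen. Mmp13 (collagenase 3) read 4.38, 4.43, 4.76, 5.67 and 4.38 in the control bladders and 4.31, 4.99 and 5.45 (lowest, median, highest) in the tumors. In treated bladders it read 4.97, 4.70 and 5.07, and in metastases 5.72, 5.07, 5.22 and 4.37. All groups overlap, and the high values are single arrays, control bladder 5, bladder tumor 6 and metastasis 1. The difference of metastasis minus control was 0.37 ± 0.28 (SE), 0.99 ± 0.34 without the near-mean arrays and 0.16 without metastasis 1, with a limma adjusted p above 0.05 each time. Mmp8, the collagenase of neutrophils, and Mmp1a and Mmp1b ranged between 4.22 and 5.59 over all arrays.

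The gelatinases MMP2 and MMP9 cut denatured collagen and basement membrane collagen. Mmp9, known for its supply by neutrophils and macrophages, was high in some of the metastases. It read 6.75, 6.04, 5.17 and 5.13 in metastases 1 to 4. The control bladders read 4.64, 4.72, 5.22, 5.23 and 5.19, the tumors 4.69, 5.11 and 5.46 (lowest, median, highest), and the treated bladders 5.07, 4.92 and 5.23. Metastasis 1 and 2 lie above every bladder array and metastasis 3 and 4, both near-mean arrays, lie within them. The difference was 0.67 ± 0.24 from tumor and 0.77 ± 0.26 from control (limma adjusted p = 0.825 and 0.676). Without the near-mean arrays these differences were 1.37 ± 0.24 and 1.72 ± 0.28, and without metastasis 1 alone 0.34 and 0.45.

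Mmp2 (gelatinase A), a product of fibroblasts, did not follow Mmp9. It read 7.34, 7.17, 6.46, 6.19 and 6.68 in control bladder, with the top values of the whole series in control bladder 1 and 2. The tumors read 5.69, 6.58 and 7.12 (lowest, median, highest), the treated bladders 6.43, 6.15 and 6.30, and the metastases 5.72, 6.94, 6.18 and 6.63. Treated bladder minus control was -0.48 ± 0.32 (limma adjusted p = 1.0), and -0.97 ± 0.41 without the near-mean arrays. The fibroblast list (6 genes measured) had means of 7.24 to 7.98 in control, 6.09 to 8.94 in tumor, 6.64 to 7.53 in treated bladder and 7.30 to 7.95 in metastasis. Its part in the Mmp2 values was not tested.

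Mmp3 is a stromelysin, which degrades proteoglycans, fibronectin and laminin and activates other pro-MMPs. It read 10.58 in bladder tumor 6 and at most 6.36 in the other 19 arrays. The control bladders read 4.92, 5.01, 6.00, 6.36 and 5.98, the tumors 4.95, 5.73 and 10.58 (lowest, median, highest), the treated bladders 6.07, 5.45 and 6.33, and the metastases 6.01, 5.64, 5.74 and 5.93. Apart from that 1 tumor the groups overlap. The tumor minus control difference of 0.64 ± 0.68 became -0.08 without bladder tumor 6 and 1.72 ± 1.27 without the near-mean arrays.

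Mmp10 (stromelysin 2), close to Mmp3 on chromosome 9, peaked in the same tumor. The tumors read 4.87, 5.20 and 6.22 (lowest, median, highest) against 4.81, 4.86, 5.20, 4.95 and 5.26 in control. The treated bladders read 5.48, 5.09 and 4.92 and the metastases 4.97, 5.01, 4.94 and 5.01. Bladder tumor 4 and 1, at 5.64 and 5.57, also lie above all controls. Tumor minus control was 0.36 ± 0.19 (limma adjusted p = 0.999), 0.58 ± 0.34 without the near-mean arrays and 0.21 without bladder tumor 6. Metastasis minus tumor was -0.39 ± 0.20, and -0.24 without bladder tumor 6.

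Mmp7 (matrilysin), an MMP of epithelial cells, had its high values in other arrays. Bladder tumor 2 read 7.04, treated bladder 2 read 6.92 and bladder tumor 1 read 5.99. The remaining tumors ran from 4.61 to 5.16 and the other treated bladders read 5.01 and 4.83. The control bladders read 4.68, 4.87, 5.38, 5.42 and 5.61, and the metastases 4.58, 5.00, 5.48 and 4.59. Treated bladder 2 thus had a value close to the highest untreated tumor. Treated bladder minus tumor was 0.17 ± 0.46, and its sign turned to -0.09 ± 0.62 without the near-mean arrays and to -0.50 without treated bladder 2.

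Mmp11 (stromelysin 3) and Mmp12 (macrophage metalloelastase) had higher readings in metastasis. Mmp12 read 6.17, 5.87, 4.98 and 5.44 in metastases 1 to 4, against 4.82, 4.71, 5.45, 5.55 and 4.80 in control bladders. The tumors read 4.95, 5.08 and 5.43 (lowest, median, highest) and the treated bladders 5.27, 5.21 and 5.30. As with Mmp9, only metastasis 1 and 2 lie above all bladders. The difference was 0.49 ± 0.20 from tumor and 0.55 ± 0.21 from control, and 0.94 ± 0.15 and 1.26 ± 0.17 without the near-mean arrays. Without metastasis 1 it was 0.30 and 0.36. The difference of 1.26 had the lowest adjusted p of any member in any setting, 0.112, in a range of 0.112 to 0.936 over the settings for that difference. Mmp11 read 5.30, 4.99, 4.62 and 4.90 in metastases and 4.55, 4.61 and 4.69 (lowest, median, highest) in tumors, with a difference of 0.34 ± 0.11 (limma adjusted p = 0.825), 0.53 ± 0.16 without the near-mean arrays and 0.22 without metastasis 1. Control bladder 4 and 6 read 4.88 and 4.91, and the difference from control was 0.23 ± 0.12, 0.55 ± 0.18 without the near-mean arrays and 0.11 without metastasis 1.

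**Figure D2:**
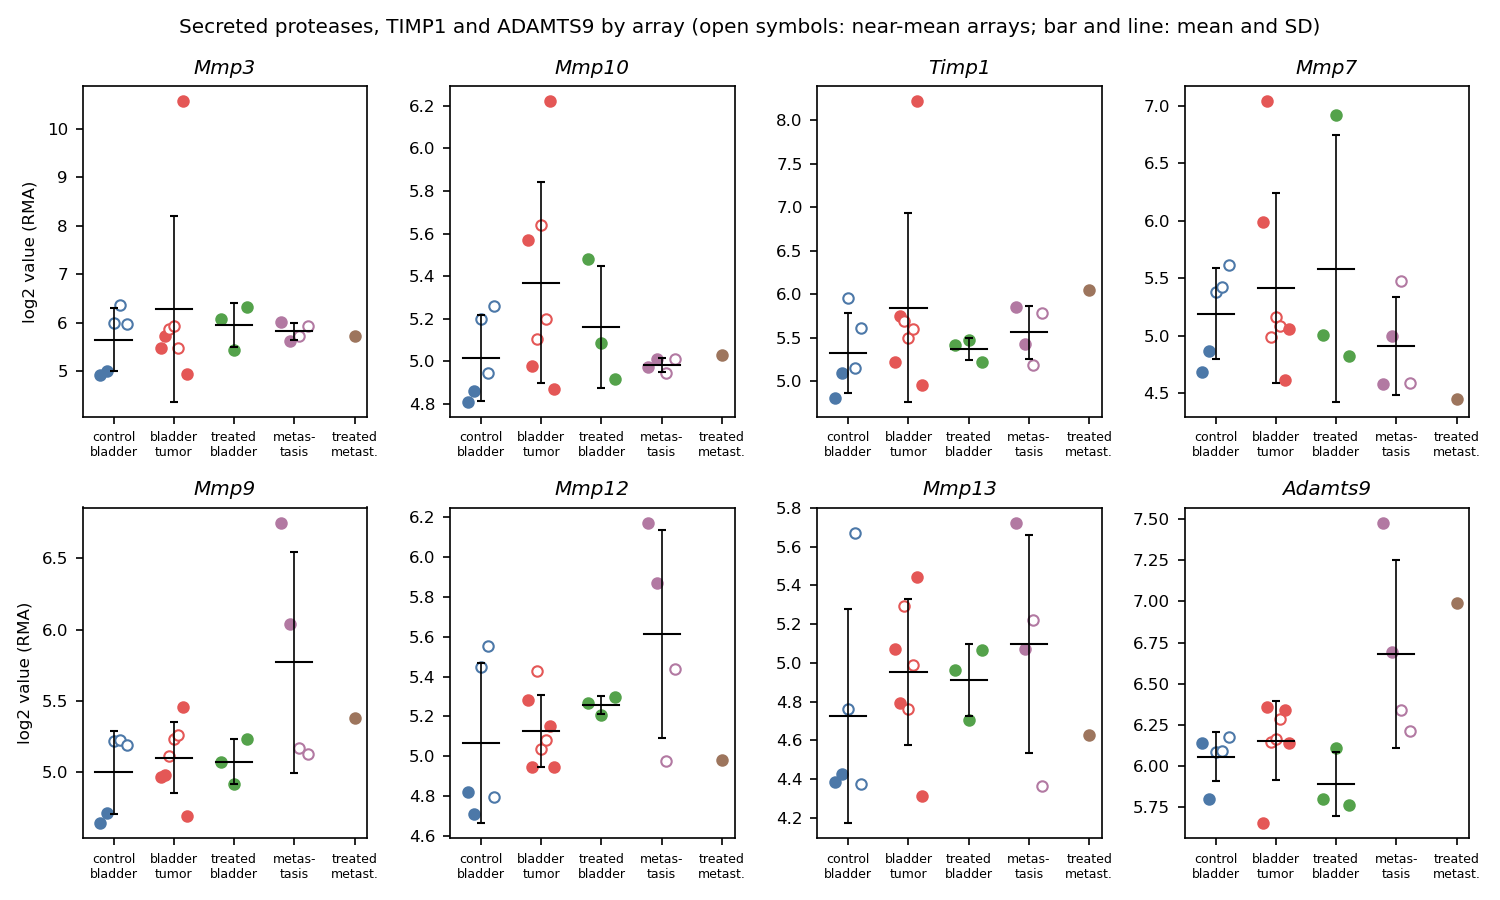
Log2 RMA values (vertical axis) of 8 members in the 5 groups, 1 symbol per array, with open symbols for near-mean arrays and a bar and line for the mean and SD of groups with over 1 array. Mmp3, Mmp10 and Timp1 are highest in 1 tumor, at 10.58, 6.22 and 8.22, while Mmp9, Mmp12 and Adamts9 are highest in 1 metastasis, at 6.75, 6.17 and 7.48.

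Among the membrane-type MMPs only Mmp14 had a wide range. MMP14 (MT1-MMP) cuts collagen at the cell surface and activates pro-MMP2. It read 8.11, 8.05, 7.83, 7.79 and 8.22 in control bladders, 6.87, 8.11 and 9.38 (lowest, median, highest) in tumors, 7.55, 7.93 and 7.45 in treated bladders and 8.10, 8.94, 7.94 and 7.77 in metastases. The lowest tumor was bladder tumor 1 and the highest bladder tumor 6, so the tumor group spans the values of all others. Treated bladder minus tumor was -0.45 ± 0.35 (limma adjusted p = 1.0), and -0.24 without bladder tumor 6. Mmp16, Mmp17, Mmp24 and Mmp25 each had a range under 1.

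Of the other MMPs Mmp19 had the widest range, at 0.79, from 5.38 in metastasis 3 to 6.16 in control bladder 6. Mmp23, a type II membrane protease, was the only member with an unadjusted limma p under 0.05 in tumor minus control. It read 6.23, 6.09, 6.12, 6.02 and 6.14 in control bladders and 5.63, 5.91 and 6.11 (lowest, median, highest) in tumors. The treated bladders read 5.79, 5.94 and 6.06. The difference was -0.23 ± 0.09 for tumor (limma adjusted p = 0.999) and -0.19 ± 0.11 for treated bladder (adjusted p = 1.0), or -0.12 without treated bladder 1. The groups overlap in both.

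Among the proteoglycan-cleaving ADAMTS genes Adamts9 had high values in metastasis. ADAMTS9 cleaves versican and aggrecan. It read 7.48, 6.69, 6.34 and 6.21 in metastases 1 to 4, and 6.14, 5.80, 6.08, 6.09 and 6.18 in control bladders. All 4 metastases lie above all 5 controls, the only member of which this was true (2.27%, against 0.995% of all genes). The tumors read 5.65, 6.16 and 6.36 (lowest, median, highest), which overlap with the metastases, and the treated bladders 5.80, 6.11 and 5.76. The difference of metastasis was 0.62 ± 0.20 from control (limma adjusted p = 0.676) and 0.53 ± 0.19 from tumor (adjusted p = 0.825). Without metastasis 1 these were 0.36 and 0.26, and without the near-mean arrays 1.12 ± 0.31 and 0.96 ± 0.27. Treated bladder minus tumor was -0.26 ± 0.21.

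Adamts1, Adamts4 and Adamts5, the aggrecanases, had their highest values in tumors. Adamts4 read 5.86 in bladder tumor 6 and at most 5.15 elsewhere. Adamts1 read 7.30 in bladder tumor 6, 7.12 in bladder tumor 7 and 6.86 in treated bladder 2. Adamts5 read 6.18 in bladder tumor 2 and 6.10 in bladder tumor 7, with 5.01, 5.61 and 6.18 (lowest, median, highest) for tumors. It ran from 5.28 to 5.88 in control bladders and from 5.18 to 5.51 in metastases, and read 5.97 in the treated metastasis. The treated bladders read 5.22, 5.75 and 5.04 for Adamts5, and treated bladder minus tumor was -0.30 ± 0.22 (limma adjusted p = 1.0). It was -0.15 without treated bladder 3 and -0.50 without treated bladder 2.

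Some ADAMTS genes read lower in the metastases than in the control bladders. Adamts6, Adamts8, Adamts13, Adamts17 and Adamts20 read lower in all 4 metastases than in all 5 control bladders, which is 11.4% of the members against 1.95% of all genes. The highest metastasis and the lowest control were close for Adamts13 (5.20 and 5.21), Adamts20 (5.19 and 5.20) and Adamts8 (5.09 and 5.12). They were farther apart for Adamts17 (4.77 and 4.87) and Adamts6 (5.93 and 6.04). These shares use the deposited values without rescaling of the arrays. Adamts6, a protease of the microfibril-associated branch, read 5.31, 5.89, 5.93 and 5.70 in metastases and 6.43, 6.09, 6.06, 6.04 and 6.06 in control bladders. Its difference was -0.43 ± 0.15 from control (limma adjusted p = 0.676) and -0.35 ± 0.14 from tumor, or -0.66 ± 0.24 and -0.52 ± 0.21 without the near-mean arrays. Without metastasis 1 the difference from tumor was -0.21. The tumors read 5.64, 6.14 and 6.36 (lowest, median, highest) and overlap with the metastases.

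Adamts20 read 5.13, 5.18, 5.19 and 5.04 in metastases, below all 7 tumors, which read 5.21, 5.40 and 5.60 (lowest, median, highest). It was the only member below the tumors in this way (2.27%, against 0.358% of all genes), and 0 members were above all tumors (against 0.156%). The difference of -0.26 ± 0.09 (limma adjusted p = 0.825) separates nearest arrays at 5.19 and 5.21. The differences from control of the other 3 were -0.24 ± 0.12 for Adamts8 (-0.10 ± 0.19 without the near-mean arrays), -0.14 ± 0.08 for Adamts13, the protease of von Willebrand factor, and -0.27 ± 0.10 for Adamts17.

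The procollagen N-proteinases and the ADAMTS genes that cut cartilage oligomeric matrix protein had single high arrays. Adamts3 read 6.26 in bladder tumor 2 and 5.68 in bladder tumor 6, with 4.87, 5.14 and 6.26 (lowest, median, highest) over the tumors against 4.94, 4.80, 5.01, 5.27 and 5.06 in control. Tumor minus control was 0.32 ± 0.19 (limma adjusted p = 0.999) 0.16 without bladder tumor 2 and 0.57 ± 0.34 without the near-mean arrays. Adamts12 read 6.23 in bladder tumor 6 and 5.25 to 5.80 in the other 19 arrays. Adamts14 and Adamts7 had ranges under 1.

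The inhibitors differed among themselves. Timp1, a TIMP induced by inflammatory cytokines, followed Mmp3 in its highest array. The control bladders read 4.81, 5.10, 5.96, 5.15 and 5.62, the tumors 4.96, 5.60 and 8.22 (lowest, median, highest), the treated bladders 5.42, 5.47 and 5.22, and the metastases 5.85, 5.42, 5.19 and 5.78. Bladder tumor 6 alone lies outside the common range. The difference was 0.52 ± 0.40 for tumor minus control, 0.13 without bladder tumor 6 and 1.08 ± 0.73 without the near-mean arrays. Treated bladder minus tumor was -0.48 ± 0.47 and -0.08 without it.

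Timp2, the partner of MMP14, read 8.35, 8.36, 7.38, 7.54 and 8.01 in control bladders, 6.93, 8.35 and 8.53 (lowest, median, highest) in tumors, 7.48, 7.98 and 7.54 in treated bladders and 8.17, 8.84, 7.87 and 7.74 in metastases. Bladder tumor 1, the lowest array for Mmp14 and Mmp2 too, was its lowest. Timp3, which is bound to the matrix and also inhibits ADAMTS enzymes, read 6.39, 6.11, 6.05, 5.54 and 5.83 in control bladders and 5.50, 5.72 and 5.92 in treated bladders. The tumors read 5.46, 5.62 and 6.12 (lowest, median, highest) and the metastases 6.14, 5.73, 5.97 and 5.68. Treated bladder minus control was -0.27 ± 0.19 (limma adjusted p = 1.0), -0.54 ± 0.23 without the near-mean arrays and -0.16 without treated bladder 1. Timp4 stayed between 4.94 and 5.65 in all arrays. The 4 replicated groups overlap for each of the 4 inhibitors.

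**Figure D3:**
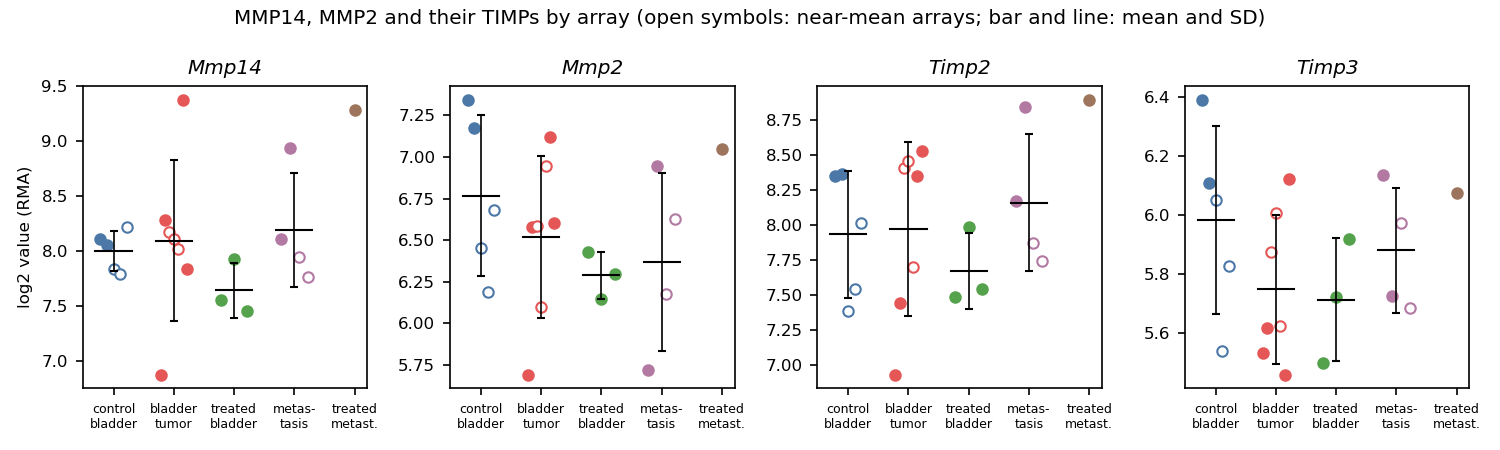
Log2 RMA values (vertical axis) of Mmp14, Mmp2, Timp2 and Timp3 in the 5 groups, 1 symbol per array, with open symbols for near-mean arrays and a bar and line for the mean and SD of groups with over 1 array. The single treated metastasis lies above all 4 untreated metastases for Mmp14 (9.29), Mmp2 (7.05) and Timp2 (8.89), but not for Timp3 (6.07).

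Across all 44 members the direction was mixed in each comparison. In tumor minus control 28 members had a positive difference, with a median of 0.04, against 53% of all genes and a median of 0.01. In treated bladder minus tumor 16 were positive (median -0.03, against 49.4% of genes), and in treated bladder minus control 23 (median 0.02, against 52.8%). All 4 TIMPs and 6 of the 7 proteoglycan-cleaving ADAMTS genes had negative values in treated bladder minus tumor, without any below an unadjusted limma p of 0.05. Without the near-mean arrays 2 of the 4 TIMPs (Timp3 and Timp4, at 0.03 and 0.01) were positive, and the ADAMTS count was the same. With all arrays the remaining classes were mixed. Positive were 4 of 6 other MMPs, 3 of 5 of the stromelysin class, 4 of 7 other ADAMTS and 2 of 5 membrane-type genes. So were 1 of 4 collagenases, 0 of 2 gelatinases, 0 of 2 procollagen N-proteinases and 1 of 2 genes that cut cartilage oligomeric matrix protein. In this comparison the fibroblast (6 of 6), macrophage (7 of 7) and neutrophil (8 of 8) markers were negative too and the smooth muscle markers (6 of 6) positive. Most urothelial (8 of 9), endothelial (5 of 5), osteoclast-like (6 of 7) and cartilage and bone (5 of 6) markers were also positive. The liver and lung epithelial markers were split, with 2 of 4 positive in each. None of these markers was called by limma, and their part was not tested. In metastasis minus tumor 18 members were positive (median -0.02, against 43.8% of genes), and in metastasis minus control 25 (median 0.03, against 47.1%). These last counts move with the scaling. After a second quantile normalization they were 24 and 29, with 50.5% and 50.4% of genes, and after centring on array medians 24 and 31, with 55.1% and 55.7%. Without the near-mean arrays the 5 counts, in the order given, were 36, 14, 32, 15 and 24, against 61.1%, 44.3%, 60.2%, 38.4% and 47.5% of genes.

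**Figure D4:**
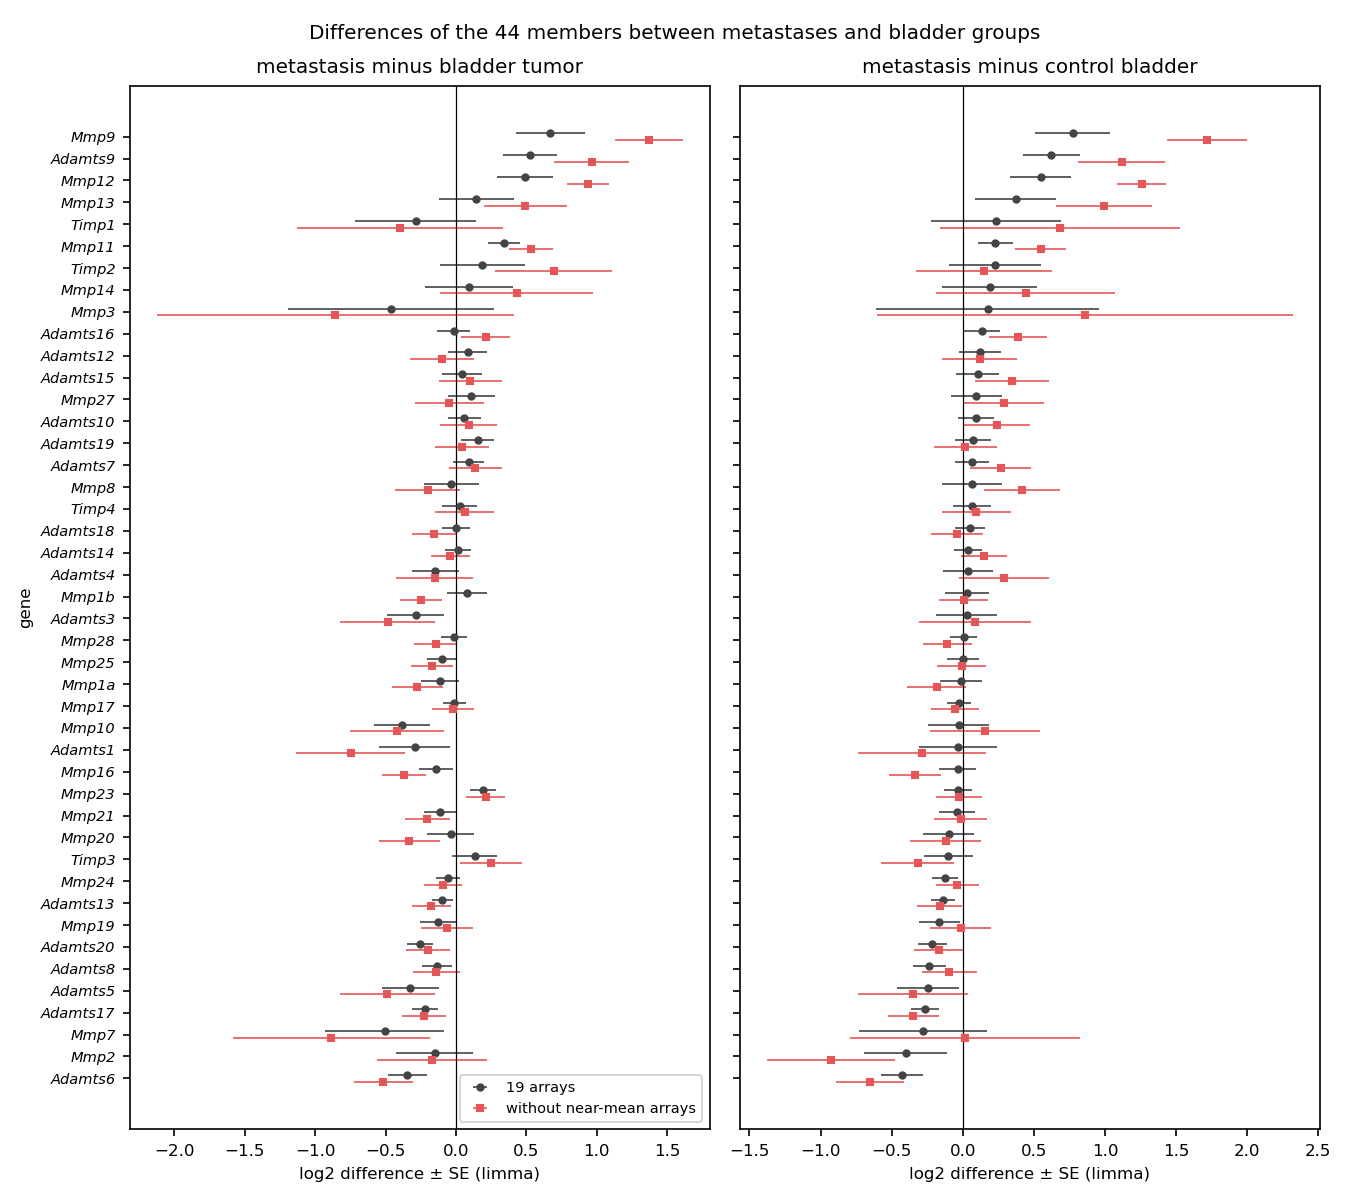
Log2 difference with its standard error from limma (horizontal axis) of each of the 44 members in metastasis minus bladder tumor (left) and metastasis minus control bladder (right), from 19 arrays (circles) and without the near-mean arrays (squares). Both panels share the metastasis arrays, and Mmp9, Adamts9 and Mmp12 head both, with differences of 0.67, 0.53 and 0.49 on the left and 0.77, 0.62 and 0.55 on the right over the 19 arrays.

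The treated metastasis is a single array and allows no test. It lay above all 4 untreated metastases for 11 of 44 members (25.0%, against 14.4% of all genes) and below them for 6 (13.6%, against 19.1%). Farthest above was Adamts5, at 5.97 against 5.18 to 5.51. Mmp14 read 9.29 against 7.77 to 8.94 and Timp1 6.04 against 5.19 to 5.85. Mmp2 at 7.05 (against 5.72 to 6.94) and Timp2 at 8.89 (against 7.74 to 8.84) were also above, so that all genes of the MMP14, TIMP2 and MMP2 activation complex lay above the untreated metastases. Farthest below were Adamts12, at 5.25 against 5.43 to 5.80, Mmp7, at 4.45 against 4.58 to 5.48, and Mmp21, at 4.36 against 4.41 to 4.74. Mmp9 and Mmp12, at 5.38 and 4.98, lay within the untreated range, below metastasis 1 and 2, and Adamts9, at 6.99, lay between those arrays. The fibroblast list read 8.71 in this array against 7.30 to 7.95 in the untreated metastases, and its part in these values was not tested.

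Cell type markers stood out in some of the arrays that carried the high values, and not in all. Bladder tumor 2, the highest array of 6 members, had the top mean of none of the 10 marker lists. In it 1 of 8 neutrophil and 1 of 6 cartilage and bone markers were at their highest of the series. In bladder tumor 6 the neutrophil list (8 genes) had a mean of 7.44, against 5.25 to 6.25 in the other tumors, and 5 of its 8 genes were at their highest of the series. Among them S100a8, an abundant cytosolic protein of neutrophils, read 11.96 against at most 8.40 in every other array. The fibroblast list read 8.94 there against 6.09 to 7.57 in the other tumors, with 5 of 6 genes at their highest, and the urothelial list read 5.37, the lowest of all arrays. In metastasis 1 and 2 the macrophage list (7 genes) read 8.89 and 8.06, against 6.71 and 6.53 in metastasis 3 and 4. It read 5.71 to 6.90 in control, 5.68 to 7.30 in tumor and 6.01 to 6.49 in treated bladder. All 7 of its genes were highest in metastasis 1 or 2. The treated metastasis had a macrophage mean of 8.02 with Mmp9 and Mmp12 at 5.38 and 4.98. The liver list (4 genes) read 6.12 and 7.69 in metastasis 1 and 2 and 6.38 in the treated metastasis, against 4.84 to 5.83 in all bladder groups. Its genes did not move together. In metastasis 1, 1 of the 4 was at its highest of the series and 1 at its lowest, and in metastasis 2, 2 were at their highest. The osteoclast-like list (7 genes, Ctsk among them) read 5.80 and 5.63 in metastasis 1 and 2 and at most 5.15 in every other array, with 3 of its genes highest in each of the 2. The part of these cell types in the values of Mmp3, Mmp10, Timp1, Mmp9, Mmp12 and Adamts9 was not tested.

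**Figure D5:**
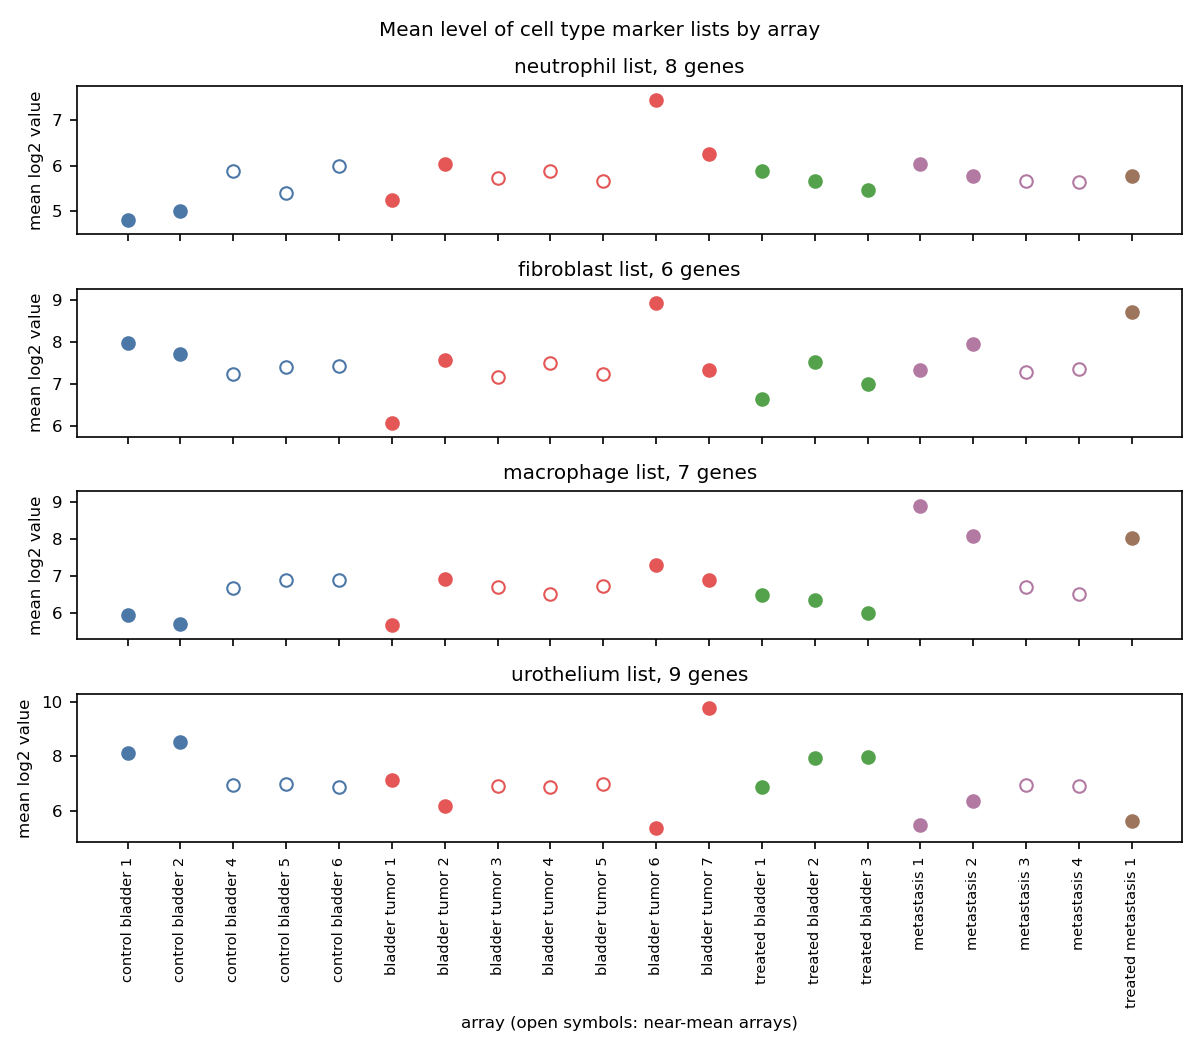
Mean log2 RMA value (vertical axis) of 4 cell type marker lists in each array (horizontal axis), with open symbols for near-mean arrays and colours for the groups. Bladder tumor 6 has the top neutrophil (7.44) and fibroblast (8.94) values, metastasis 1 and 2 have the top macrophage values (8.89 and 8.06), and bladder tumor 7 has the top urothelial value (9.79).

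The other genes of the pathway were examined through 6 lists with 50 of 56 genes measured. With all 19 arrays limma called 0 of them in any comparison. At an unadjusted limma p under 0.05 there were 1 of 50 in tumor minus control (against 4.28% of all genes), 0 in either treated bladder comparison, 7 in metastasis minus tumor (against 6.0%) and 10 in metastasis minus control (against 7.12%). The 1 was Reck, a membrane-anchored inhibitor of MMPs, at -0.37 ± 0.15, or -0.72 ± 0.21 without the near-mean arrays. In metastasis minus control all 7 measured genes of the plasminogen system, which activates pro-MMPs, had positive differences with a median of 0.41, against 47.1% of all genes, and 6 of 7 without the near-mean arrays. Plaur, the urokinase receptor, was at 0.72 ± 0.29, or 1.60 ± 0.43 without the near-mean arrays. The activating protease Ctsk (cathepsin K) read 7.64, 7.94, 6.49 and 5.73 in metastases and at most 6.17 in the bladder arrays. Its difference was 1.12 ± 0.31 from tumor and 1.22 ± 0.33 from control (limma adjusted p = 0.825 and 0.676). Without the near-mean arrays Ctsk was called, at 2.19 ± 0.16 and 2.25 ± 0.18 (limma adjusted p = 0.00104 and 0.00147). Of all 30142 genes, limma then called 4 higher and 0 lower from tumor, and 4 higher and 1 lower from control. The controls left there are control bladder 1 and 2, which differ from the rest in Xist. These fits hold 2 metastases, the same arrays in which the osteoclast-like markers were highest. Ctsk is itself in that list, and the part of such cells in the Ctsk and Mmp9 values was not tested.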

How the data were processed

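RNA extracted with a kit for fixed, embedded tissue (12 ng per sample) was hybridised to whole-transcript arrays, per the labels' protocols. The authors deposited log2 values; the submitters' processing notes name RMA and Affymetrix Expression Console, without versions. RMA equalises array distributions. Of 65956 rows, 284 hold values above 16, and without scanner files signal over background could not be computed. Here, rows were named by the platform annotation (30604 with 1 symbol, 2146 with several, 33206 unlisted), 827 symbols were updated by gene ID, and the row with the highest mean was kept, giving 30142 genes. limma 3.58.1 (R 4.3.3) fitted group means to 19 arrays, with two-sided p adjusted by Benjamini-Hochberg over all genes; the treated metastasis entered no fit. The fit was tested on simulated data. The members and lists were chosen with earlier results of these data known.

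Named members were, per comparison, the 3 with the smallest p, the widest of each role class, Mmp2, Mmp9, Mmp14 and the TIMPs always, and the 3 farthest above and below for the treated metastasis. Mmp7, Mmp10, Mmp12, Adamts1, Adamts4, Adamts8, Adamts13, Adamts17, Ctsk, Plaur and Reck were singled out after their values were seen. Replicate numbers were not taken as pairs: 3 of 20 same-number pairs had r above 0.1. A low r does not exclude that samples of the same number share an animal.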

Additional observations from a re-analysis of the deposited data

Results flagged for a closer look

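Among the 23 named members, 69 groups of 4 to 7 arrays were examined for an array far from the rest of its group, and 8 had one. Chance gives about 1 in 20 in groups that were not selected, but these members were named partly for their range or their values, so the 8 are not set against that rate. Bladder tumor 6 lay far above the other tumors for Mmp3 (10.58), Timp1 (8.22), Adamts12 (6.23) and Adamts4 (5.86). Bladder tumor 1 lay far below them for Adamts9 (5.65). Among the control bladders, control bladder 1 was far above for Adamts6 (6.43), control bladder 2 far below for Adamts9 (5.80) and control bladder 4 far above for Mmp21 (4.86).

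Mmp2, Mmp14 and Timp1 were flagged for opposite signs of treated minus untreated in metastasis and in bladder. They were not the only members with opposite signs. Timp2 (0.74 in metastasis and -0.30 in bladder), Adamts5 (0.66 and -0.30) and Mmp12 (-0.63 and 0.13) were among the others. These signs were not tested, since only 1 treated metastasis exists. Treated minus untreated was 0.68 in metastasis and -0.23 in bladder for Mmp2. For Mmp14 it was 1.10 and -0.45, and for Timp1 0.48 and -0.48.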

How the results depend on the processing

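For 26 results (5 counts of called members and 21 differences of named members), 720 values were recomputed under 28 settings, of which 19 left out 1 array each. The count of called members was 0 in every setting and comparison. Of these 21 differences 1 changed its sign: Mmp3 in tumor minus control ran from -0.076 without bladder tumor 6 to 0.86 without bladder tumor 7 among the settings that left out 1 array, and up to 1.72 without the near-mean arrays. The other 719 values kept their direction and their side of the threshold, and the lowest adjusted p was 0.112. Bladder tumor 6 also moved Timp1, and metastasis 1 moved Mmp9, Mmp12 and Adamts9, as given above, and the cause was not tested. With the replicate number as a replicate block, limma called 0 members in each comparison and gave 0.50 for Mmp10 in tumor minus control. Only 2 of 19 arrays correlated best with an array of their own number, so the numbers were not taken as pairs. Keeping only genes above the median level removed 25 of the 44 members. Signal over background could not be computed, so how far low readings reflect expression is not known.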
